A study of Rattus norvegicus with 9 samples.

Results

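The genes described here build and run the mitotic spindle, attach chromosomes to it, time their separation and divide the cell. The set holds 39 genes chosen by symbol, and all 39 are among the 28935 rows of the count table. They were divided by role into 6 groups: kinetochore and centromere (5 genes), spindle motors and spindle assembly (11), spindle checkpoint and anaphase onset (8), the chromosomal passenger complex (4), cytokinesis (6), and chromosome structure and other mitotic genes (5). In dividing cells, kinetochores assembled on the centromere hold spindle microtubules. The checkpoint keeps the anaphase-promoting complex off until every chromosome is attached, and a ring of actin and myosin guided by the central spindle then cuts the cell. Heart muscle cells of rodents largely leave the cell cycle in the days after birth. Many pass through a last nuclear division without cytokinesis and stay binucleate, so genes of nuclear division and of cytokinesis are of separate interest in these cells.

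Messenger RNA was measured in 9 libraries of cultured neonatal rat ventricular myocytes from Sprague Dawley rats 1 or 2 days old, 3 libraries per adenovirus. The cells carried an adenovirus for GFP (the control), for Nfya or for Nfe2l1, and every group spent 48 h in DMEM/199 medium with 3% serum and then 48 h without serum in the presence of its virus. NF-Y, of which NFYA is a subunit, recognises CCAAT boxes in promoters. NFE2L1, of the cap'n'collar family, is best known as an inducer of proteasome genes. The comparison asks how an excess of either factor alters the transcripts of these cells. It is not stated whether replicates are separate cultures, so the p-values cover library-to-library spread alone, possibly a technical one. Replicate pairs were compared over genes with at least 20 counts in the pair. On average, GFP replicates 1 and 2 and every pair of Nfya-labelled libraries differed by about as much as sampling alone gives (mean chi-square per gene from 0.97 to 1.03). That mean mixes 2 kinds of genes. In these pairs genes with few counts per base (below 0.1) averaged 1.24 to 1.36, so the remaining genes differed by less than sampling alone gives. Over all genes compared, other pairs differed by more (1.11 to 1.58).

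Library totals ran from 5712123 to 7310774 counts. A single member in a single library held between 24 counts (Cenpa in GFP replicate 3) and 2821 (Mki67 in Nfya replicate 3), and all 39 passed the filter on low counts. Levels are given as CPM (counts relative to the TMM-scaled library total) and changes as log2 fold change ± SE from edgeR's quasi-likelihood test, with 14151 genes tested and a gene called where its Benjamini-Hochberg adjusted p was under 0.05. The Nfya transcript lay between 77.8 and 81.9 CPM in GFP, 88.3 and 89.6 CPM in the Nfya-labelled and 90.5 and 94.8 CPM in the Nfe2l1-labelled libraries. The Nfe2l1 transcript lay between 234 and 246, 218 and 227, and 233 and 245 CPM in the same order. Neither transcript marked its own virus group apart from the other, so directions given for Nfya or Nfe2l1 rest on the library labels. Markers of heart muscle were found in every library, with 19 of them summing to between 6073 and 6783 CPM, and the cultures also held transcripts of other cell types. In bulk RNA, fewer cells of a type and less RNA per cell cannot be told apart.

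Promoter sequences were examined because NF-Y is known for binding CCAAT boxes at cell cycle promoters. RefSeq windows (GRCr8) matched 34 of the 39 members (not Tpx2, Ube2c, Aurkb, Incenp and Racgap1), and the 250 bases before the annotated start of the first window of each gene were searched for CCAAT on both strands (read as ATTGG when on the other one). They were also searched on both strands for the cell cycle homology region, which is bound by the DREAM and MuvB complexes and was taken as TTTGAA, whose reverse reads TTCAAA, or as the palindrome TTCGAA. The 6 windows first listed hold the most CCAAT boxes of each role group (Hmmr ties with Aspm, Kif20a with Ect2 and Top2a with Mki67, and the member of higher mean CPM is shown), and the last 2 hold none: Kif2c, with the largest change in Nfya-labelled libraries among such members, and Anln, with the smallest. Kif2c has 2 windows, and only its first was used, so the absence of a box covers 1 annotated start. Capitals mark both motifs, and the last base of each line lies next to the start. Cenpf lies at chr13:103760887-103761136 (minus strand). Aspm lies at chr13:53625334-53625583 (plus strand). Pttg1 lies at chr10:28406327-28406576 (minus strand). Cdca8 lies at chr5:142483200-142483449 (minus strand). Ect2 lies at chr2:111966627-111966876 (minus strand). The Mki67 window is chr1:199952594-199952843 (minus strand), that of Kif2c chr5:135899213-135899462 (minus strand) and that of Anln chr8:29197514-29197763 (minus strand).
Cenpf: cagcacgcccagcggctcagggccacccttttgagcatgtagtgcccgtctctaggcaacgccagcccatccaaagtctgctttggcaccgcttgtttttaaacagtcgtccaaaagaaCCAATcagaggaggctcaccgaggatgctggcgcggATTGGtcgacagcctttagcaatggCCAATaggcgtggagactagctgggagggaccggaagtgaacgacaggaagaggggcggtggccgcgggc
Aspm: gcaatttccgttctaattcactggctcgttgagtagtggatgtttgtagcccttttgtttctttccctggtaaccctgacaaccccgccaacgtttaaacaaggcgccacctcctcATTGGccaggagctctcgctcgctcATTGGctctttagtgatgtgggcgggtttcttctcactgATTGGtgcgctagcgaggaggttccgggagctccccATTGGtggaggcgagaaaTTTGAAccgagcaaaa
Pttg1: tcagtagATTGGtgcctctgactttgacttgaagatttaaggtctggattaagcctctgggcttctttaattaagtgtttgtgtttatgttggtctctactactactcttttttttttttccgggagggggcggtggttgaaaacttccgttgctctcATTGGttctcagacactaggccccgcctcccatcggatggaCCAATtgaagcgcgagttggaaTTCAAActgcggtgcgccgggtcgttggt
Cdca8: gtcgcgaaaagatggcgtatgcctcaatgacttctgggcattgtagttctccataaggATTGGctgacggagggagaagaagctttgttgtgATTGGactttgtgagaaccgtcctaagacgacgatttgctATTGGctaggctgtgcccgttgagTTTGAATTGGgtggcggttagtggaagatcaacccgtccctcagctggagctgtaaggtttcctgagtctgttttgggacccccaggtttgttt
Ect2: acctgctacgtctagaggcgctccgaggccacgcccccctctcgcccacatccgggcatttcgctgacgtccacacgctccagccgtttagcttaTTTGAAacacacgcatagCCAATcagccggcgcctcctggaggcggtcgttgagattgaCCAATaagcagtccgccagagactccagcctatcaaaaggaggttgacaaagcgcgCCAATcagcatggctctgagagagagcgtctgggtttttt
Mki67: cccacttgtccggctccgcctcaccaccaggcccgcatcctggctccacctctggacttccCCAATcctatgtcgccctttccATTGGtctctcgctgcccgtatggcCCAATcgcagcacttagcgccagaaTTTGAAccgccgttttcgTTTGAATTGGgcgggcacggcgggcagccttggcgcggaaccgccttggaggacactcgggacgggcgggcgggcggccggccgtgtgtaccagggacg
Kif2c: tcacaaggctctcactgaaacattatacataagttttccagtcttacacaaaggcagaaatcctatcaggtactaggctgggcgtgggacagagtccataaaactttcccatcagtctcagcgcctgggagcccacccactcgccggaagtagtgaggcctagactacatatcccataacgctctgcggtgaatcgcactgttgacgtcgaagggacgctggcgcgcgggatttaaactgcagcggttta
Anln: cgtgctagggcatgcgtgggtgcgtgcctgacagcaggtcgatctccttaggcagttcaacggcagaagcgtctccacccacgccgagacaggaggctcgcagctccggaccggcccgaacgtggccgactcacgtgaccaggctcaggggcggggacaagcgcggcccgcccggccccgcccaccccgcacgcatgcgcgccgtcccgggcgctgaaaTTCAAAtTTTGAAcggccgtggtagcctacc
Aspm holds boxes starting 134, 109, 70 and 34 bases before the start and a TTTGAA at 16. Ect2 holds 3 boxes, at 137, 96 and 40. In Cdca8 and Mki67, 1 CCAAT box each shares bases with the homology region motif (the final A of TTTGAA is the initial A of ATTGG), and no other member had such an overlap. At least 1 CCAAT box stood in 24 of the 34 members (70.6%), against 34.02% of all 33469 windows of the table and 35.1% of 10260 windows of genes tested here. At least 2 stood in 19 members (55.9%), against 9.42% of all windows and 12.3% of those of genes tested. The homology region motif stood in 16 members (47.1%), against 17.4% of all windows and 11.9% of those of genes tested. Both motifs stood in 14 (41.2%), against 6.31% and 4.45%. The 34 spacings between neighbouring boxes of 1 window ran from 22 to 189 bases, start to start, with a median of 40. Of these, 23 measured from 25 to 45 bases. Spacings in windows of other genes were not measured, so this count has no share to set beside it. A match is a description of letters and does not show binding.

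In the Nfya-labelled libraries, 38 of 39 members were higher than in GFP and 1, Anln, did not pass the test. Of all 14151 genes, 24.3% were called higher in this comparison and 27.9% lower. No member was called lower by edgeR, none at an unadjusted p below 0.05, and none by DESeq2. Member log2 fold changes ran from 0.06 (Anln) to 1.08 (Cenpa) with a median of 0.69, which is 1.61-fold, against -0.02 over all genes. Calls in either direction covered 52.2% of all genes. Of the 39 members 23 were over 1.5-fold higher and 0 over 1.5-fold lower, where 11% and 6.68% of all genes were called at that size. All 3 Nfya-labelled libraries lay above all 3 GFP libraries in 37 members and below them in 0, where 28.4% of all genes lay above and 33.2% below (61.6% without overlap). Summed over the set, members held 2398, 2497 and 2314 CPM in GFP and 3620.3, 3686 and 3665 CPM in the Nfya-labelled libraries.

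In the Nfe2l1-labelled libraries, 19 members were lower than in GFP, 3 were higher and 17 did not pass the test, where 29.7% of all genes were called lower, 28.9% higher and 58.6% in either direction. The libraries lay wholly below GFP in 17 members and wholly above in 3, where 32.4% and 31.7% of all genes did so (64% without overlap). Over 1.5-fold, 2 members were higher and 2 lower, where 11.8% and 9.93% of all genes were called. The median was -0.17, a level 0.891 times that of GFP, against -0.01 over all genes. The members summed to 2148, 2089.99 and 2188 CPM, below all 3 GFP libraries. Against the Nfe2l1-labelled libraries, the Nfya-labelled ones held 38 members higher and none lower (none lower at an unadjusted p below 0.05 or by DESeq2), where 25.2% and 25.4% of all genes were called (50.6% in either direction), with a median of 0.82. In that comparison 33 members were over 1.5-fold higher and 0 over 1.5-fold lower, where 8.26% and 6.55% of all genes were called. The libraries were wholly apart in 38 members, all higher in the Nfya-labelled group, where 30.3% of all genes were apart in that direction and 29.7% in the other (60% in all). Both virus groups are compared with the same GFP libraries. The call stayed the same under all 18 alternative settings for 38 members in Nfya against GFP, for 37 in Nfya against Nfe2l1 and for 27 in Nfe2l1 against GFP.

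**Figure D1:**
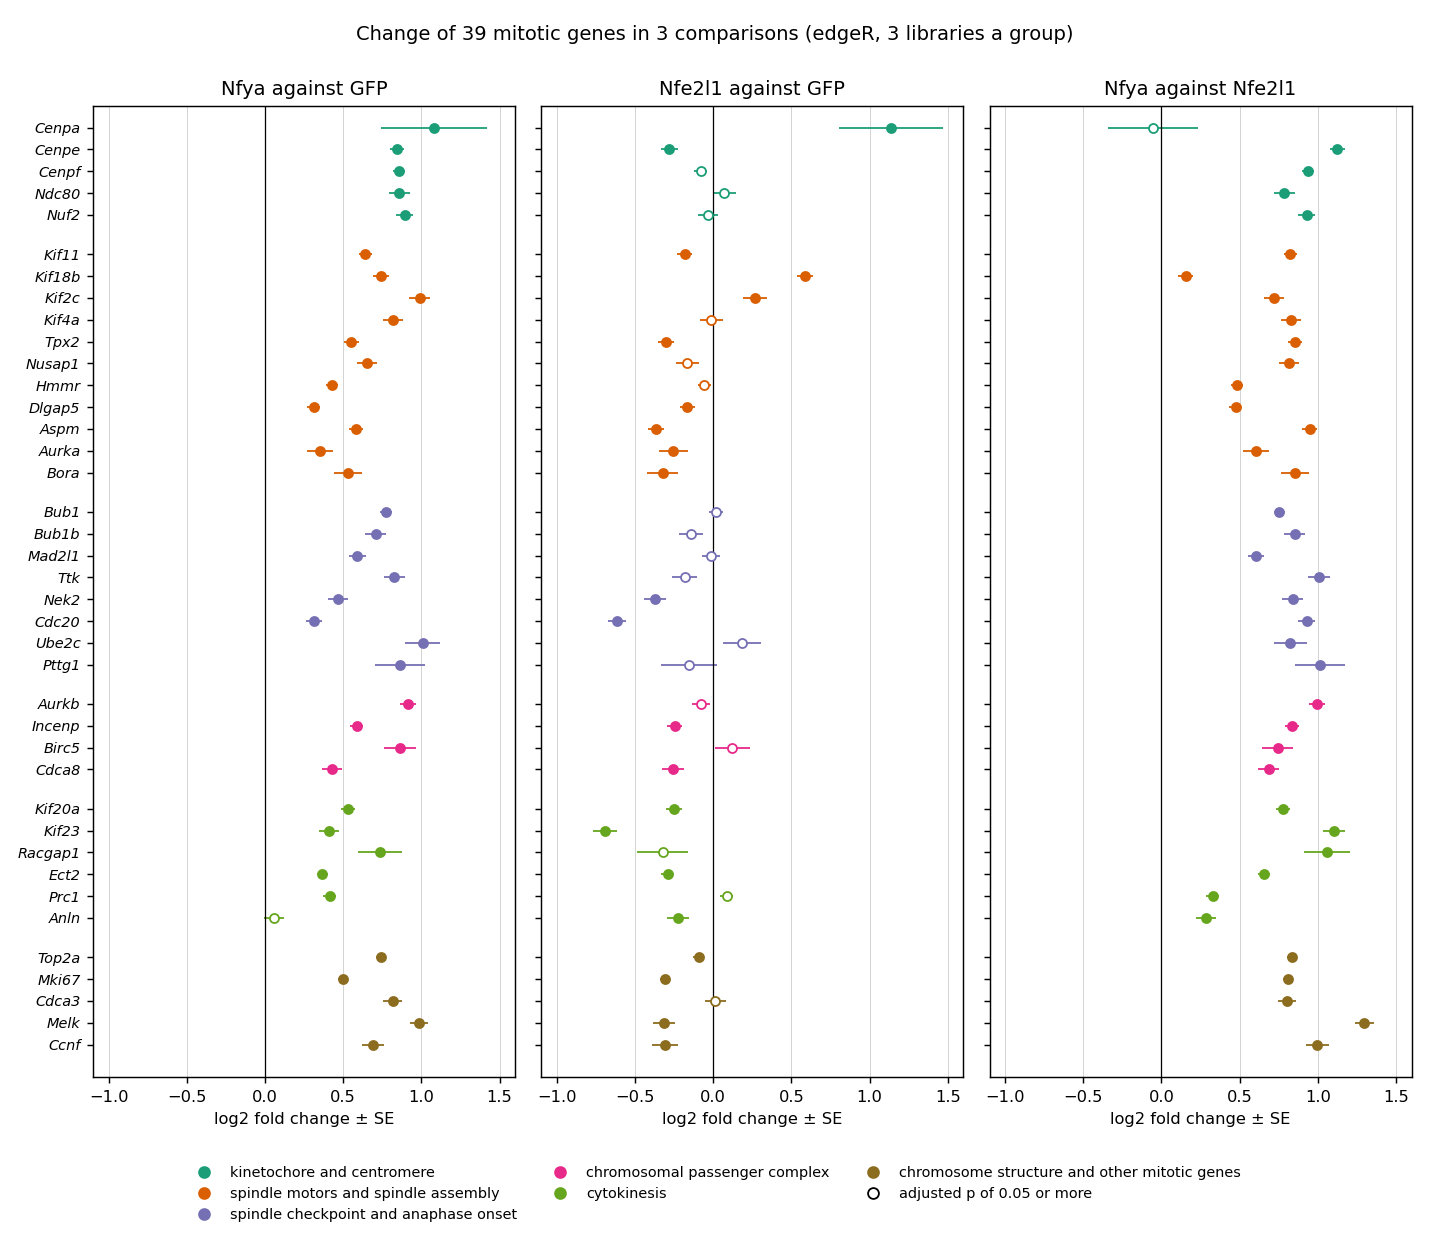
Log2 fold change ± SE (x axis) of each of the 39 mitotic genes (y axis, coloured by role) in the 3 comparisons, with open points for genes that did not pass the test. In Nfya against GFP every point lies to the right of 0, with Anln nearest to it at 0.06, and in Nfe2l1 against GFP 30 of 39 lie to the left.

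Transcripts listed as markers of other cell types moved too, and their part in the result was not tested. To set beside the counts below, 24.3% of all genes were called higher and 27.9% lower with Nfya. With Nfe2l1 the shares were 28.9% and 29.7%. Of 16 fibroblast markers tested, 13 were higher and 1 lower in the Nfya-labelled libraries (median 1.19), and the list summed to 1532 to 1612 CPM in GFP and 2659 to 2686 CPM there. In the Nfe2l1-labelled libraries, where most called mitotic members were lower, 13 fibroblast markers were also higher (median 0.91, 2258 to 2374 CPM). Endothelial markers had 9 of 13 higher in each comparison with GFP, with 1 lower for Nfya and 2 for Nfe2l1, and summed to 349 to 369, 504 to 526 and 525 to 581 CPM in GFP, Nfya and Nfe2l1, with Cldn5 and Robo4 at 0 counts in all 9 libraries. Smooth muscle and pericyte markers had 8 of 13 higher and 1 lower for Nfya, and 3 higher and 6 lower for Nfe2l1, and their sums were 1804 to 1824, 1973 to 1986 and 1509 to 1548 CPM. That list includes Des, Acta2 and Abcc9, and bulk sums do not show which cells held these transcripts. Epicardial and mesothelial markers had 8 of 10 higher and 2 lower in both comparisons (183 to 194, 218 to 243 and 302 to 316 CPM). Of 10 macrophage and leukocyte markers, 7 were higher and 2 lower for Nfya and 4 higher and 1 lower for Nfe2l1 (84.03 to 109, 118 to 134 and 122 to 136 CPM). Schwann and neural markers had 4 of 6 higher in both (313 to 317, 353 to 359 and 324 to 337 CPM), and erythroid markers, 1 of them tested and not called, summed to at most 3.82 CPM in any library. Heart muscle markers had 6 of 19 higher for Nfya (median 0.03), and 1 higher and 3 lower for Nfe2l1 (median -0.03), with sums of 6073 to 6639, 6699.9 to 6783 and 6109 to 6616 CPM. Markers called against the majority of their list for Nfya were Col1a2 (-2.24 ± 0.79), Kdr (-1.08 ± 0.04), Cspg4 (-0.38 ± 0.03), Csf1r (-0.44 ± 0.10), Cd74 (-0.92 ± 0.31), Krt18 (-0.84 ± 0.07) and Aldh1a2 (-0.38 ± 0.07). For Nfe2l1 they were Xirp2 (0.37 ± 0.04), Kdr (-0.86 ± 0.04), Esam (-0.54 ± 0.18), Pdgfrb (0.81 ± 0.07), Abcc9 (0.21 ± 0.04), Notch3 (0.68 ± 0.10), Cd74 (-1.58 ± 0.34), Krt18 (-0.78 ± 0.07) and Aldh1a2 (-0.96 ± 0.08). Median log2 fold changes for Nfya and Nfe2l1 were 1.07 and 0.87 for endothelial, 0.14 and -0.17 for smooth muscle, 0.63 and 0.53 for macrophage, 0.93 and 1.51 for epicardial and 0.59 and 1.10 for Schwann markers.

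Kinetochore and centromere genes rose in the Nfya-labelled libraries, all 5 of 5, with a median of 0.86. That call was made for 24.3% of all genes. Cenpf, which codes for a large protein of the outer kinetochore, stood at 98.1, 108 and 94.5 CPM in the GFP libraries, 179, 182 and 183 CPM in the Nfya-labelled and 94.1, 93.7 and 96.5 CPM in those labelled Nfe2l1. The Nfya-labelled libraries lay far above the other groups, which overlapped. Cenpf rose 1.81-fold (0.85 ± 0.04, adjusted p = 5.00e-11), and its difference in the Nfe2l1-labelled libraries did not pass the test (-0.08 ± 0.04, adjusted p = 0.123), though it was called lower without GFP replicate 3 (-0.12, adjusted p = 0.0386). Cenpe, a kinesin that carries chromosomes towards the spindle equator, stood at 95.8, 94.9 and 79.97 CPM in the GFP libraries, 162, 161 and 165 CPM in the Nfya-labelled and 75.6, 73.5 and 74.9 CPM in those labelled Nfe2l1. Its 3 groups did not overlap: the level rose with Nfya (0.84 ± 0.05, adjusted p = 4.98e-10) and fell with Nfe2l1 (-0.28 ± 0.05, adjusted p = 3.70e-04). Ndc80 and Nuf2, partners in the complex that grips the microtubule, rose by nearly the same amount, 0.86 ± 0.07 and 0.89 ± 0.05, and neither was called in the Nfe2l1-labelled libraries (0.07 ± 0.08 and -0.04 ± 0.06).

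Cenpa, the centromeric histone H3 variant, was the least abundant member per length in GFP and had the largest SE in all 3 comparisons. It stood at 6.59, 3.99 and 4.25 CPM in the GFP libraries, 17.6, 6.08 and 7.90 CPM in the Nfya-labelled and 9.33, 12.7 and 10.8 CPM in those labelled Nfe2l1. Nfya replicate 1 held 115 counts while replicates 2 and 3 held 40 and 53, and the Nfya-labelled group overlapped GFP. The rise in the Nfya-labelled libraries (1.08 ± 0.34, adjusted p = 0.0134) lost its call without that library (0.50, adjusted p = 0.112). In the Nfe2l1-labelled libraries, all above GFP, Cenpa rose 2.20-fold (1.14 ± 0.33, adjusted p = 0.00825), the largest rise among the members there. Between the virus groups the difference was -0.06 ± 0.29, adjusted p = 0.893, and without Nfya replicate 1 Cenpa was lower in the Nfya-labelled libraries (-0.64, adjusted p = 0.0235).

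**Figure D2:**
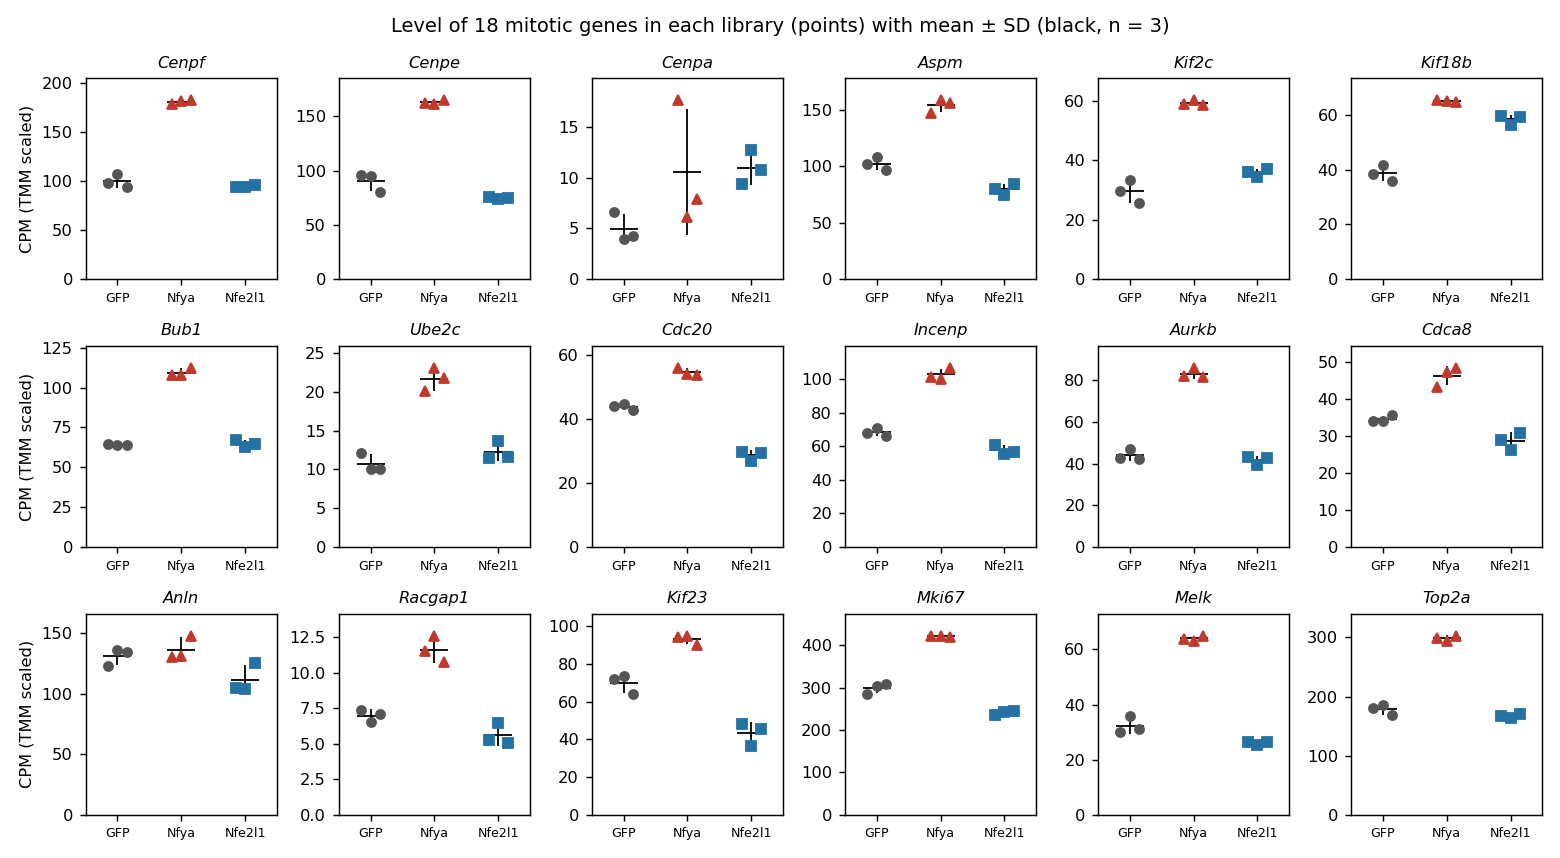
CPM (y axis, from 0) of 18 mitotic genes in each library (points, by virus on the x axis) with mean ± SD in black. The Nfya-labelled points lie above the GFP points in every panel but those of Cenpa and Anln, and the Nfe2l1-labelled points of Kif18b lie near the Nfya level.

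Spindle motor and assembly genes were all higher in the Nfya-labelled libraries, 11 of 11, by 0.31 (Dlgap5) to 0.99 (Kif2c) with a median of 0.58. In the Nfe2l1-labelled libraries 6 were lower, 2 higher and 3 not called (median -0.17). Beside these counts, 24.3% of all genes were called higher with Nfya, and 29.7% lower and 28.9% higher with Nfe2l1. Aspm, which organises spindle poles, stood at 103, 108 and 96.4 CPM in the GFP libraries, 147, 159 and 156 CPM in the Nfya-labelled and 80.2, 74.6 and 83.99 CPM in those labelled Nfe2l1. The 3 groups were separate, with a rise for Nfya (0.58 ± 0.05, adjusted p = 2.98e-08) and a fall for Nfe2l1 (-0.36 ± 0.05, adjusted p = 1.91e-05). Kif11, the kinesin that pushes spindle poles apart, and Tpx2, the activator of Aurora A on the spindle, followed the same pattern, at 0.64 ± 0.04 and 0.55 ± 0.05 for Nfya and -0.18 ± 0.05 and -0.30 ± 0.05 for Nfe2l1.

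The 2 members that rose with Nfe2l1 in this group code for kinesins that shorten microtubules. Kif18b, which trims astral microtubules, stood at 38.5, 41.7 and 35.9 CPM in the GFP libraries, 65.4, 65.04 and 64.6 CPM in the Nfya-labelled and 59.5, 56.4 and 59.04 CPM in those labelled Nfe2l1. Both virus groups lay above GFP, at 0.74 ± 0.05, adjusted p = 8.90e-09 for Nfya and 0.59 ± 0.05, adjusted p = 1.24e-07 for Nfe2l1. The direct difference of 0.16 ± 0.05, adjusted p = 0.0176 was lost without Nfe2l1 replicate 2 (0.13, adjusted p = 0.0828) and with DESeq2 (0.16, adjusted p = 0.114). Kif2c, the microtubule depolymerase of the centromere, stood at 29.7, 33.5 and 25.7 CPM in the GFP libraries, 58.9, 60.3 and 58.6 CPM in the Nfya-labelled and 36.2, 34.5 and 37.1 CPM in those labelled Nfe2l1. It rose 1.98-fold with Nfya (0.99 ± 0.07, adjusted p = 7.09e-09). The smaller rise with Nfe2l1 (0.27 ± 0.08, adjusted p = 0.00676) was lost without GFP replicate 3 (0.18, adjusted p = 0.0632).

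The remaining spindle genes spread widely in the Nfya-labelled libraries. Kif4a, a chromosome-arm motor that also works with Prc1 at the midzone, rose by 0.82 ± 0.06, and the microtubule bundler gene Nusap1 by 0.65 ± 0.06. Smaller rises were seen for Bora (0.53 ± 0.09), an activator of mitotic entry kinases, Hmmr (0.43 ± 0.04), Aurka (0.35 ± 0.08), which codes for the spindle pole kinase Aurora A, and Dlgap5 (0.31 ± 0.04). With Nfe2l1, Bora (-0.32 ± 0.10), Aurka (-0.26 ± 0.09) and Dlgap5 (-0.17 ± 0.04) fell, each call being lost in 3 to 6 of 18 alternatives, among them without Nfe2l1 replicate 3 for Bora (-0.22, adjusted p = 0.122). For Aurka the call ended without GFP replicate 1 (-0.25, adjusted p = 0.0598), GFP replicate 2 (-0.14, adjusted p = 0.210) or Nfe2l1 replicate 1 (-0.18, adjusted p = 0.135). For Dlgap5 it ended without GFP replicate 2 (-0.14, adjusted p = 0.0606) or Nfe2l1 replicate 1 (-0.14, adjusted p = 0.0505). Kif4a, Nusap1 and Hmmr were not called there (-0.01 ± 0.07, -0.17 ± 0.07 and -0.06 ± 0.04), but Nusap1 was called lower without GFP replicate 3 (-0.24, adjusted p = 0.00886).

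Among genes of the spindle checkpoint and of anaphase onset, 8 of 8 were higher in the Nfya-labelled libraries (median 0.74), and in the Nfe2l1-labelled libraries 2 were lower and 6 not called. Their median with Nfe2l1 was -0.15, but -0.061 without GFP replicate 1, -0.09 without Nfe2l1 replicate 1 and -0.09 without Nfe2l1 replicate 2. Beside these calls, 24.3% of all genes were called higher with Nfya and 29.7% lower with Nfe2l1. Bub1, a checkpoint kinase, stood at 64.5, 63.8 and 63.7 CPM in the GFP libraries, 108, 108 and 112 CPM in the Nfya-labelled and 67.01, 62.7 and 64.5 CPM in those labelled Nfe2l1. GFP and Nfe2l1 libraries overlapped, and only the Nfya-labelled ones stood apart (0.77 ± 0.04, adjusted p = 1.63e-10). The checkpoint partners Ttk (0.83 ± 0.07), Bub1b (0.71 ± 0.07) and Mad2l1 (0.59 ± 0.05) rose as well, and with Nfe2l1 they stood at -0.18 ± 0.08, -0.14 ± 0.08 and -0.02 ± 0.06 with no call. Ttk was called lower without Nfe2l1 replicate 3 (-0.28, adjusted p = 0.00644) and Bub1b without GFP replicate 3 (-0.22, adjusted p = 0.0147).

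Cdc20 and Ube2c act with the anaphase-promoting complex, and securin, coded by Pttg1, is degraded through it. Cdc20, the activator that the checkpoint holds back, stood at 44.1, 44.8 and 42.6 CPM in the GFP libraries, 55.9, 54.1 and 53.7 CPM in the Nfya-labelled and 29.5, 26.8 and 29.5 CPM in those labelled Nfe2l1. The 3 groups were separate, with a small rise for Nfya (0.31 ± 0.05, adjusted p = 5.61e-05) and the second largest fall among the members for Nfe2l1 (-0.62 ± 0.06, adjusted p = 1.50e-07), so that the level was 1.90-fold higher in Nfya- than in Nfe2l1-labelled libraries. Ube2c, the ubiquitin-conjugating enzyme of the complex, stood at 12.1, 10.05 and 10.1 CPM in the GFP libraries, 20.1, 23.1 and 21.8 CPM in the Nfya-labelled and 11.5, 13.6 and 11.6 CPM in those labelled Nfe2l1. It rose 2.01-fold with Nfya (1.01 ± 0.11, adjusted p = 1.26e-06), and Nfe2l1 libraries overlapped GFP (0.18 ± 0.12, adjusted p = 0.249). Pttg1, with 31 to 52 counts in each GFP library, rose by 0.86 ± 0.16 with Nfya and was not called with Nfe2l1 (-0.16 ± 0.18). Nek2, a centrosome kinase gene, rose by 0.47 ± 0.06 with Nfya and fell with Nfe2l1 (-0.37 ± 0.07, adjusted p = 3.60e-04).

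The chromosomal passenger complex couples chromosome attachment to cytokinesis, and all 4 of its genes were higher in the Nfya-labelled libraries (median 0.72). Beside this, 24.3% of all genes were called higher. Aurkb, the kinase of the complex, stood at 42.7, 46.99 and 42.3 CPM in the GFP libraries, 82.2, 86.01 and 81.6 CPM in the Nfya-labelled and 43.2, 39.3 and 42.5 CPM in those labelled Nfe2l1. It rose 1.89-fold (0.92 ± 0.05, adjusted p = 4.40e-10), while GFP and Nfe2l1 libraries overlapped (-0.08 ± 0.06, adjusted p = 0.332). Incenp, the scaffold, stood at 68.03, 70.9 and 65.99 CPM in the GFP libraries, 101, 99.996 and 107 CPM in the Nfya-labelled and 60.9, 55.3 and 56.7 CPM in those labelled Nfe2l1. The groups were separate, with a rise of 0.58 ± 0.04, adjusted p = 1.88e-08 for Nfya and a fall for Nfe2l1 (-0.25 ± 0.05, adjusted p = 4.64e-04). Cdca8, which codes for borealin, stood at 33.9, 33.8 and 35.6 CPM in the GFP libraries, 43.2, 47.1 and 48.3 CPM in the Nfya-labelled and 28.9, 26.2 and 30.8 CPM in those labelled Nfe2l1. It rose by 0.43 ± 0.06 and fell with Nfe2l1 (-0.26 ± 0.07, adjusted p = 0.00559), a call lost without Nfe2l1 replicate 2 (-0.20, adjusted p = 0.0516). Birc5, the survivin gene, rose by 0.86 ± 0.10 with Nfya and was not called with Nfe2l1 (0.12 ± 0.11).

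By median, cytokinesis genes rose least of the 6 groups in the Nfya-labelled libraries, at 0.41 against 0.74 over the other 33 members. The ranges overlapped, from 0.06 to 0.73 for cytokinesis and from 0.31 to 1.08 for the others. Of the 6 cytokinesis genes, 5 were called higher, where 24.3% of all genes were. In the Nfe2l1-labelled libraries 4 of the 6 were lower and 2 not called, where 29.7% of all genes were called lower. Their median there was -0.27 against -0.16 over the other 33 and -0.31 in the chromosome structure group. Anln codes for anillin, the scaffold that links actin, myosin and septins in the cleavage ring, and stood at 123, 136 and 134 CPM in the GFP libraries, 129.97, 131 and 148 CPM in the Nfya-labelled and 105, 104 and 125 CPM in those labelled Nfe2l1. Nfya-labelled and GFP libraries overlapped, and the difference did not pass the test (0.06 ± 0.07, adjusted p = 0.486). With Nfe2l1 it fell (-0.23 ± 0.07, adjusted p = 0.00915), but the call ended without GFP replicate 2 (-0.18, adjusted p = 0.0635), without Nfe2l1 replicate 1 (-0.17, adjusted p = 0.0815) and without Nfe2l1 replicate 2 (-0.18, adjusted p = 0.0517).

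The centralspindlin genes, whose products bundle the midzone and recruit the activator of the ring, moved further than Anln. Kif23, its kinesin, stood at 72.01, 73.7 and 63.9 CPM in the GFP libraries, 94.4, 94.98 and 90.1 CPM in the Nfya-labelled and 47.9, 36.4 and 45.4 CPM in those labelled Nfe2l1. The 3 groups were separate, with a rise for Nfya (0.41 ± 0.07, adjusted p = 7.00e-05) and the largest fall of any member for Nfe2l1 (-0.70 ± 0.08, adjusted p = 1.23e-06), a level 0.618 times that of GFP. Racgap1, the GTPase-activating partner of Kif23, stood at 7.35, 6.50 and 7.08 CPM in the GFP libraries, 11.5, 12.6 and 10.7 CPM in the Nfya-labelled and 5.29, 6.43 and 5.04 CPM in those labelled Nfe2l1. It rose 1.66-fold with Nfya (0.73 ± 0.14, adjusted p = 3.92e-04), and with Nfe2l1 its libraries lay below GFP without passing the test (-0.32 ± 0.16, adjusted p = 0.120), at 34 to 48 counts per library in these groups. Ect2, the exchange factor that activates RhoA at the cleavage site, rose by 0.37 ± 0.04 with Nfya and fell with Nfe2l1 (-0.29 ± 0.04, adjusted p = 1.57e-05). Kif20a, a midzone kinesin, did likewise at 0.53 ± 0.04 and -0.25 ± 0.05. Prc1, which crosslinks midzone microtubules, rose with Nfya (0.41 ± 0.04) and was not called with Nfe2l1 (0.09 ± 0.04), though it was called higher without GFP replicate 2 (0.15, adjusted p = 0.00598) or Nfe2l1 replicate 3 (0.13, adjusted p = 0.0183) and with both other filters on low counts.

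Nuclear division and cytokinesis were set side by side in each library as the mean log2 CPM of a group's genes relative to its GFP mean. In the Nfya-labelled libraries cytokinesis genes stood at 0.40, 0.45 and 0.41 in replicates 1, 2 and 3. Kinetochore genes stood at 1.05, 0.79 and 0.83, or 0.85, 0.91 and 0.86 without Cenpa. Spindle genes stood at 0.58, 0.62 and 0.61 and checkpoint genes at 0.69, 0.73 and 0.68. The cytokinesis values were the lowest of the 6 groups in each of the 3 Nfya-labelled libraries, and the GFP libraries spread from -0.04 to 0.02 for cytokinesis and from -0.12 to 0.12 for kinetochore genes. In the Nfe2l1-labelled libraries cytokinesis genes stood at -0.27, -0.30 and -0.29, again below the other groups by this mean. The cytokinesis mean includes Kif23, with the largest fall of any member (-0.70 ± 0.08), and was not taken without it. By median against GFP, the chromosome structure group lay lower, at -0.31 against -0.27 for cytokinesis. Kinetochore genes stood at 0.13, 0.18 and 0.21 in the Nfe2l1-labelled libraries, and at -0.08, -0.12 and -0.03 without Cenpa. Between the virus groups the medians were closer, at 0.72 for cytokinesis, 0.93 for kinetochore, 0.82 for spindle and 0.85 for checkpoint genes. No test was made of the difference between groups of genes, since genes are not replicates.

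**Figure D3:**
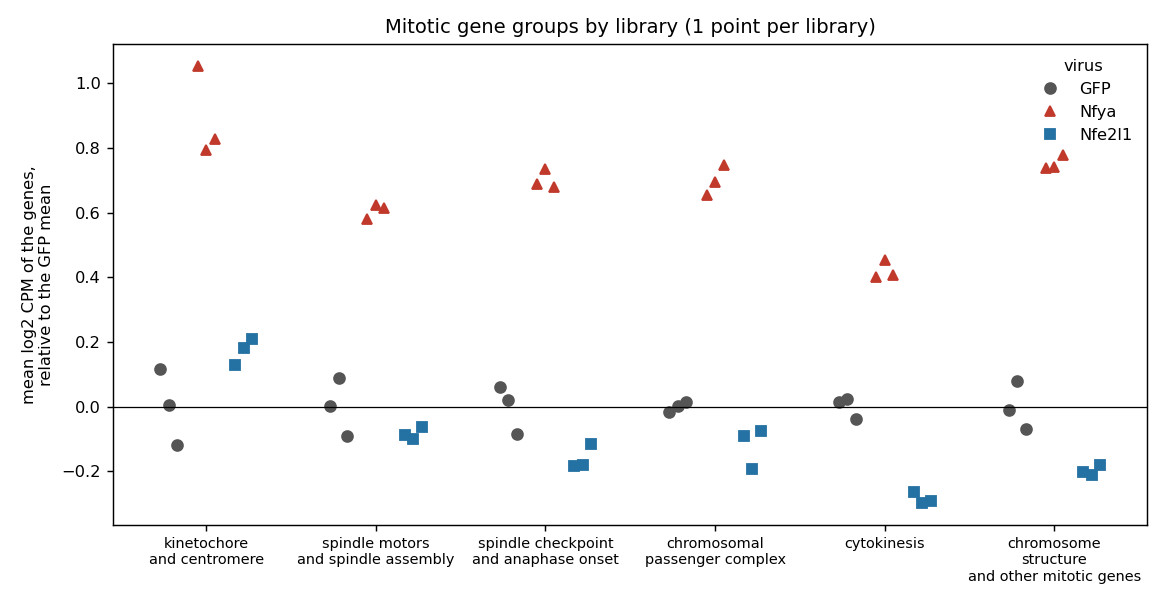
Mean log2 CPM of the genes of each role group, relative to the GFP mean (y axis), with 1 point per library and role groups on the x axis. Nfya-labelled points lie above GFP in every group and lowest for cytokinesis (0.40 to 0.45), and Nfe2l1-labelled points lie lowest for cytokinesis (-0.27 to -0.30) as well.

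The last group holds proliferation markers and chromosome structure genes, of which 5 of 5 were higher in the Nfya-labelled libraries (median 0.74) and 4 of 5 lower in the Nfe2l1-labelled ones (median -0.31). Among all genes, 24.3% were called higher with Nfya and 29.7% lower with Nfe2l1. Mki67, the gene of the proliferation antigen Ki-67 that coats mitotic chromosomes, was the member with the most counts and stood at 286, 304 and 308 CPM in the GFP libraries, 423, 422 and 421 CPM in the Nfya-labelled and 235, 243 and 245 CPM in those labelled Nfe2l1. Its groups were separate, rising with Nfya (0.50 ± 0.03, adjusted p = 1.76e-09) and falling with Nfe2l1 (-0.31 ± 0.03, adjusted p = 5.48e-07). Melk, a kinase gene of proliferating cells, stood at 30.2, 35.8 and 30.96 CPM in the GFP libraries, 63.8, 63.2 and 65.02 CPM in the Nfya-labelled and 26.3, 25.2 and 26.5 CPM in those labelled Nfe2l1. It rose 1.97-fold with Nfya (0.98 ± 0.06, adjusted p = 9.90e-10) and fell with Nfe2l1 (-0.32 ± 0.07, adjusted p = 0.00116), and the difference between the viruses, 2.46-fold (1.30 ± 0.06, adjusted p = 7.02e-11), was the largest of the 39.

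Top2a, the topoisomerase that untangles chromosomes, rose by 0.74 ± 0.03 with Nfya. Its small fall with Nfe2l1 (-0.09 ± 0.04, adjusted p = 0.0353) was lost in 12 of 18 alternatives, among them without GFP replicate 1 (-0.07, adjusted p = 0.166), GFP replicate 2 (-0.05, adjusted p = 0.263) and each Nfe2l1 replicate (adjusted p from 0.0658 to 0.134). Ccnf, the cyclin F gene, whose product is part of a ubiquitin ligase, rose by 0.69 ± 0.07 and fell with Nfe2l1 (-0.31 ± 0.08). Cdca3, a gene whose product promotes mitotic entry, rose by 0.82 ± 0.06 and was not called with Nfe2l1 (0.01 ± 0.07).

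Compared per length in the deposited RPKM values, cytokinesis genes included the most abundant members in GFP. Anln led with 37.8 ± 2.06 RPKM (SD, n = 3), and Prc1 followed with 37.4 ± 2.49, a difference within the spread of their libraries. Top2a (31.8 ± 1.72), Mki67 (30.2 ± 1.08), Hmmr (29.9 ± 1.30) and Mad2l1 (29.3 ± 1.84) came next, with neighbours in this order differing by less than their spread. The lowest were Ube2c (3.70 ± 0.41), Racgap1 (2.36 ± 0.15) and Cenpa (1.96 ± 0.56). In the Nfya-labelled libraries the order at the top changed, with Top2a at 53.9 ± 0.86 RPKM, Prc1 at 50.4 ± 0.35, Mad2l1 at 44.8 ± 1.01, Mki67 at 43.1 ± 0.14 and Hmmr at 40.8 ± 0.98 above Anln at 39.7 ± 2.93, the last pair within their spread. The centralspindlin partners Kif23 and Racgap1 were far apart per length in GFP, at 20.7 ± 1.65 and 2.36 ± 0.15 RPKM.

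**Figure D4:**
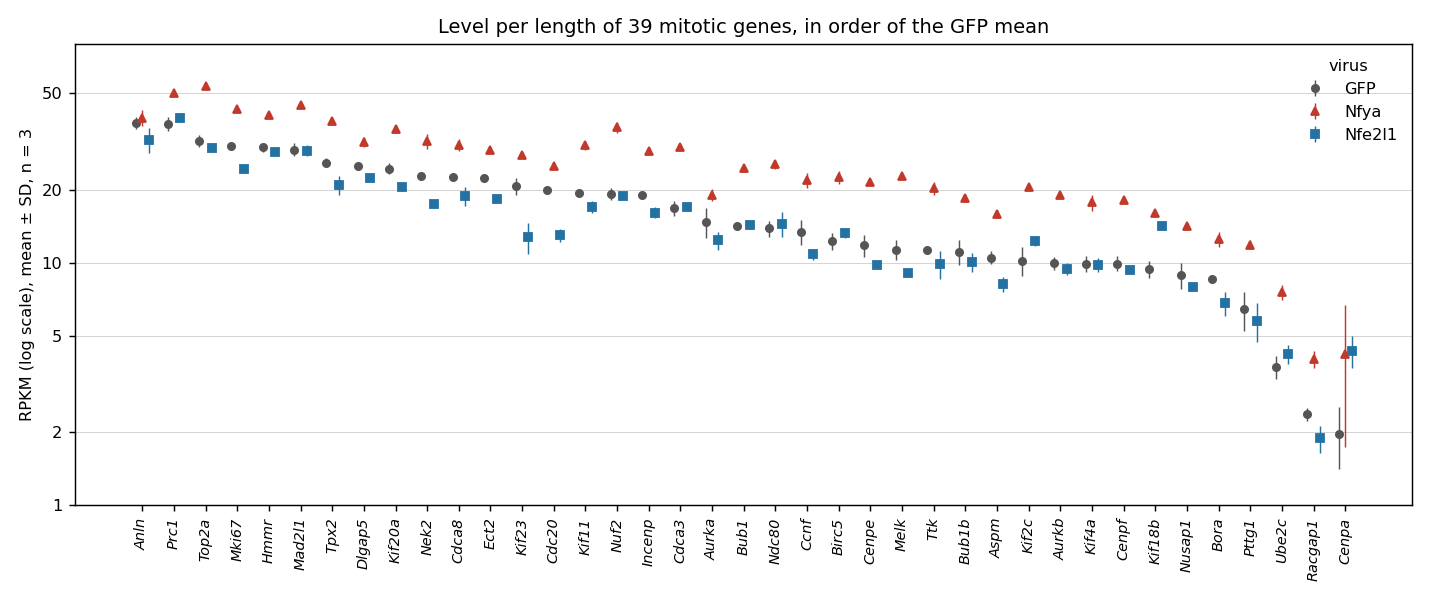
Mean ± SD RPKM (y axis, log scale, n = 3) of the 39 mitotic genes (x axis, in order of the GFP mean) in each virus group. Anln and Prc1 are the highest in GFP at 37.8 and 37.4 RPKM and Cenpa the lowest at 1.96, and the Nfya points lie above GFP with Anln the closest.

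Members were also set by the number of CCAAT boxes in the window, with no test. In Nfya against GFP the 10 members with no box in the window had a median of 0.76 (from 0.06 for Anln to 0.99 for Kif2c), the 5 with 1 box had 0.64 and the 19 with 2 or more had 0.58, so the median was lower with more boxes, over wide and overlapping ranges. Over all genes tested with a window, the medians were -0.03 for 6654 genes with no box, -0.01 for 2339 with 1 and -0.01 for 1267 with 2 or more. In Nfe2l1 against GFP the member medians were -0.03, -0.18 and -0.18 in the same order. Of the 5 cytokinesis genes with a window, 4 held a CCAAT box and 4 held the homology region motif; Anln, without a CCAAT box, held 2 of the latter near the start. Melk, Nuf2 and Ndc80, which rose by 0.98 ± 0.06, 0.89 ± 0.05 and 0.86 ± 0.07 with Nfya, had no CCAAT box in these windows.

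**Figure D5:**
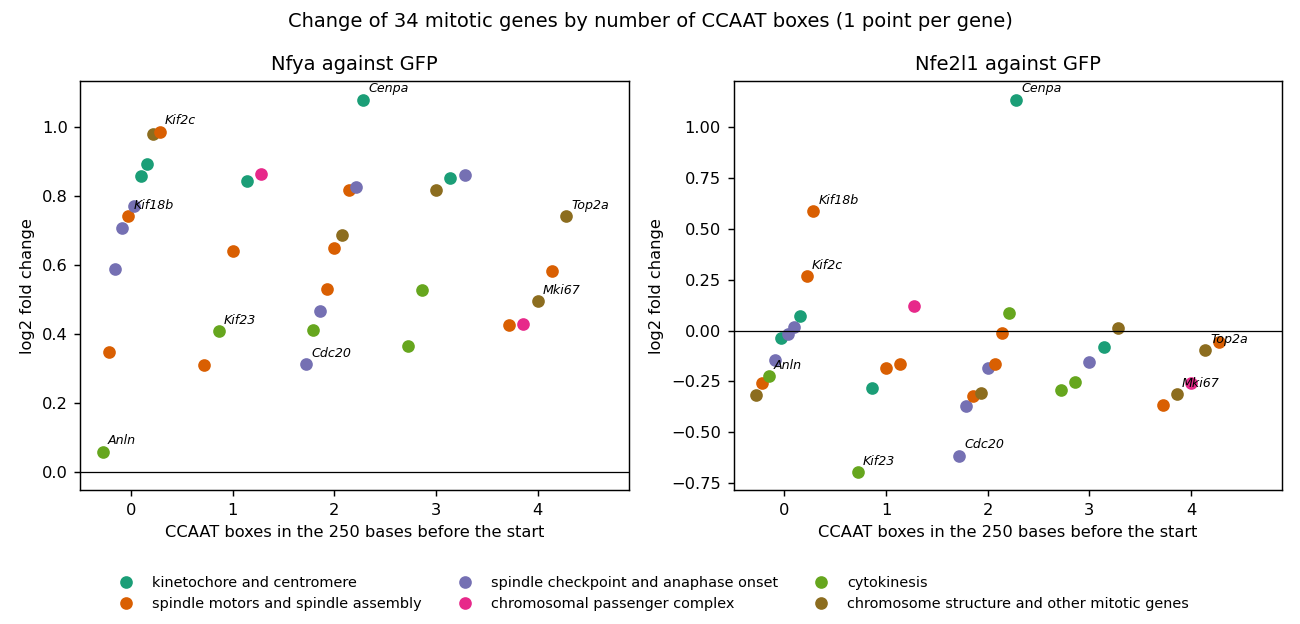
Log2 fold change (y axis) of the 34 members with a RefSeq window by the number of CCAAT boxes in the 250 bases before the start (x axis, points spread sideways within a number), coloured by role. Members with no box span 0.06 to 0.99 in Nfya against GFP, and those with 2 or more span 0.31 to 1.08.

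Other genes of the same machinery were taken from lists of symbols. To set beside their counts, 24.3% of all genes were called higher and 27.9% lower with Nfya. With Nfe2l1 the shares were 28.9% and 29.7%. Of 31 other kinetochore genes tested, 21 were higher and 2 lower in the Nfya-labelled libraries (median 0.41), and 5 were higher and 12 lower in the Nfe2l1-labelled ones (median -0.04). Kntc1, which keeps the checkpoint active at unattached kinetochores, rose by 0.75 ± 0.04 with Nfya, and the inner kinetochore genes Cenpi and Cenpu by 0.96 ± 0.06 and 0.91 ± 0.06. Cenpc, which anchors the kinetochore to CENP-A chromatin, fell with Nfya (-0.23 ± 0.04), as did Ska2 (-0.25 ± 0.10). Hjurp, the chaperone that loads CENP-A, fell with Nfe2l1 (-0.57 ± 0.06), and Nsl1 (0.94 ± 0.09), Cenpu (0.58 ± 0.07), Cenpp (0.39 ± 0.11), Cenpn (0.33 ± 0.06) and Zwint (0.24 ± 0.04) rose.

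Among 30 other spindle genes, 16 were higher and 2 lower with Nfya (median 0.21), where 24.3% and 27.9% of all genes were called. With Nfe2l1, 3 were higher and 14 lower (median -0.06), where 28.9% and 29.7% of all genes were called. With Nfya the centrosome gene Cdk5rap2 rose by 1.14 ± 0.06, the spindle kinesin gene Kif15 by 0.88 ± 0.06 and Tacc3 by 0.73 ± 0.05, while Numa1 (-0.18 ± 0.03) and the augmin gene Haus3 (-0.15 ± 0.05) fell. With Nfe2l1 Haus7 (0.93 ± 0.08), Ckap5 (0.14 ± 0.03) and Cep192 (0.13 ± 0.03) rose, and Haus3 (-0.49 ± 0.06) and the pericentrin gene Pcnt (-0.29 ± 0.03) fell. Of 27 other checkpoint and anaphase genes, 9 were higher and 1 lower with Nfya (median 0.06), beside the same 24.3% and 27.9%. The 3 of smallest p were Anapc1 (0.41 ± 0.03), Mastl (0.67 ± 0.06) and the separase gene Espl1 (0.90 ± 0.08), and Cdc27 was the one that fell (-0.20 ± 0.03). With Nfe2l1, 6 were higher and 9 lower (median -0.02), beside 28.9% and 29.7% of all genes. Anapc1 (0.56 ± 0.03) and Mastl (0.41 ± 0.06) were higher again, along with Mad2l1bp (0.37 ± 0.07), Anapc10 (0.21 ± 0.06), Anapc7 (0.12 ± 0.04) and Bub3 (0.11 ± 0.04). Anapc16 was lower (-0.42 ± 0.05).

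Of 24 other cytokinesis genes, 9 were higher and 6 lower with Nfya, where 24.3% and 27.9% of all genes were called (median 0.03). With Nfe2l1, 6 were higher and 8 lower, where 28.9% and 29.7% of all genes were called (median -0.07). Iqgap3 (1.09 ± 0.05), the formin gene Diaph3 (0.82 ± 0.04), whose product builds ring actin, and Kif20b (0.76 ± 0.05) rose with Nfya. The 6 that fell were Rock1 (-0.19 ± 0.03), a kinase that activates ring myosin, Chmp4c (-0.26 ± 0.08), Pdcd6ip (-0.09 ± 0.03), Vps4a (-0.15 ± 0.04), Vps4b (-0.10 ± 0.03) and the microtubule-severing gene Spast (-0.23 ± 0.05). Chmp2a (-0.02 ± 0.05) and Tsg101 (-0.09 ± 0.04), which like Chmp4c belong to the membrane-cutting ESCRT machinery, were not called. With Nfe2l1 Spast (-0.31 ± 0.05) and Stmn1 (-0.35 ± 0.06) fell, and Kif13a (0.20 ± 0.03), Mitd1 (0.47 ± 0.09), Diaph3 (0.23 ± 0.05), Diaph1 (0.18 ± 0.04), Chmp4c (0.21 ± 0.07) and Pdcd6ip (0.15 ± 0.03) rose. Several genes of this list, such as Rock1 and the ESCRT genes, also serve cells that do not divide.

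Condensin and cohesin genes had 8 of 17 higher and 4 lower with Nfya, against the same 24.3% and 27.9% of all genes (median 0.05). With Nfe2l1, 4 were higher and 6 lower, against 28.9% and 29.7% of all genes (median -0.06). The condensin genes Ncapg (0.97 ± 0.05), Ncaph (0.94 ± 0.05) and Ncapg2 (0.40 ± 0.04) rose with Nfya, and the 4 that fell were Rad21 (-0.13 ± 0.04), Stag2 (-0.13 ± 0.03), Wapl (-0.15 ± 0.03) and Nipbl (-0.09 ± 0.03). The cohesin genes Smc1a (0.05 ± 0.03), Smc3 (-0.02 ± 0.03) and Stag1 (0.01 ± 0.03) were not called, unlike Rad21 and Stag2. With Nfe2l1 Smc2 (-0.24 ± 0.03) and Pds5b (-0.19 ± 0.03) fell, and Ncapd2 (0.33 ± 0.06), Wapl (0.12 ± 0.03), Nipbl (0.08 ± 0.03) and Pds5a (0.10 ± 0.03) rose. Of 23 regulators of mitotic promoters, 7 were higher and 4 lower with Nfya, where 24.3% and 27.9% of all genes were called. With Nfe2l1 6 were higher and 10 lower, where 28.9% and 29.7% of all genes were called. Foxm1 (0.66 ± 0.04) and Mybl2 (0.92 ± 0.05), activators of mitotic genes, and E2f7 (1.01 ± 0.06), a repressor of the E2F family, rose with Nfya. With Nfe2l1 Lin54 (0.51 ± 0.03), which binds the homology region motif, rose, and Lin9 (-0.78 ± 0.08) and Rbl1 (-0.64 ± 0.06) fell. The regulators called against the majority were Lin37 (-0.38 ± 0.07), Rbl2 (-0.20 ± 0.04), E2f5 (-0.39 ± 0.10) and Mybl1 (-0.10 ± 0.03) with Nfya. With Nfe2l1 they were Nfya (0.20 ± 0.04), Rbl2 (0.13 ± 0.04), E2f6 (0.10 ± 0.03), Mybl2 (0.15 ± 0.06) and Lin37 (0.17 ± 0.06) beside Lin54.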

How the data were processed

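The authors deposited raw counts per gene symbol and RPKM values (reads scaled by gene length and depth), with a gene length in bases, per the file headers. Per the submitters' processing notes, the tools named include edgeR 3.20.5, featureCounts 1.6.0 and FastQC 0.11.4. Neither the aligner nor the strand setting is given in the sources used here, so reads of overlapping or antisense genes may be shared. Counts were tested in R 4.3.3 with edgeR 4.0.16: filterByExpr, TMM, and the quasi-likelihood F test, fitted on the 9 libraries together with no term but group. DESeq2 1.42.0 and limma 3.58.1 were alternatives. The SE was taken as |log2 fold change| divided by the root of the F statistic. Levels of different genes were compared only in RPKM.

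The members and gene lists were chosen with earlier results of these data known. Of 266 genes in 14 lists, 254 were matched. Over genes with at least 20 counts in a pair, 4 of 9 replicate pairs were near sampling noise (mean chi-square per gene 0.97 to 1.03). In every pair, genes with few counts per base (below 0.1) differed by more than that (1.24 to 1.72), and 40 to 58 genes had a chi-square over 25. The remaining genes of those 4 pairs therefore differed by less than sampling noise, and the reason was not tested. All 3 libraries of a group were counted as replicates, though these values cannot show that they are separate cultures. The small spread between libraries bears on every p-value. Per-library values are given, by role group, for the member with the highest mean CPM, those with the largest change for each virus, and any called against its group. Top2a was added to the plot after values were seen. From pathway lists, up to 3 genes of smallest p and those called against the majority were named, and from cell type lists the latter. Outside this rule, Chmp2a, Tsg101, Smc1a, Smc3 and Stag1 were named as genes not called with Nfya. Fits were tested on simulated counts drawn independently for each library, so that test cannot show whether the real libraries are independent. Mean counts per base of members reached 0.279. The authors' own edgeR tables were not used.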

Additional observations from a re-analysis of the deposited data

How the results depend on the processing

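The 18 alternatives were other scalings, filters on low counts, DESeq2, limma on log2(RPKM + 0.5), a threshold of 0.01, only the 6 libraries compared, a replicate block and each of the 9 libraries left out in turn. No member changed direction with a call in any of them. The count of members called higher was 37 to 38 for Nfya against GFP and 37 to 38 for Nfya against Nfe2l1 over these settings. For Nfe2l1 against GFP, 2 to 4 were called higher and 15 to 22 lower, with the lowest count of 15 also from DESeq2. The count of members lower in Nfya than in Nfe2l1 was 0, and 0 to 1 when 1 library was left out, the 1 being Cenpa without Nfya replicate 1. With 1 library left out, group medians for Nfya against GFP ran from 0.54 to 0.66 (spindle), 0.69 to 0.81 (checkpoint), 0.37 to 0.49 (cytokinesis) and 0.70 to 0.80 (chromosome structure and other). For Nfe2l1 against GFP they ran from -0.21 to -0.061 (checkpoint), -0.17 to -0.11 (passenger complex) and -0.31 to -0.22 (chromosome structure and other), and for Nfya against Nfe2l1 from 0.81 to 0.90 (checkpoint) and 0.69 to 0.75 (cytokinesis). Under the filter at a mean of 5 CPM, the cytokinesis median for Nfya against GFP was 0.45. Leaving Cenpa out, chosen after seeing the data, gave kinetochore medians of 0.86, -0.06 and 0.93 in the 3 comparisons. The cause of these shifts was not tested.

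Deviations of libraries with the same number in different groups had correlations of -0.07 to 0.05 across genes, against -0.07 to 0.06 for different numbers. Much of each deviation is counting noise, so these values cannot show whether the numbers pair libraries. With the replicate block, 38 members were called higher and 0 lower for Nfya against GFP, 3 higher and 18 lower for Nfe2l1 against GFP, and 38 higher and 0 lower for Nfya against Nfe2l1. Depth limits Cenpa, Pttg1, Racgap1, Ube2c and Birc5, which held at most 152 counts in any library.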
